A study of Homo sapiens with 6 samples.

Results

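Condensin is the ring-shaped motor complex that folds chromatin into compact mitotic chromosomes, and the transcripts of its 8 subunit genes were followed in the established human lung cancer line NCI-H1299 (non-small cell carcinoma). The genes were chosen by name (SMC2, SMC4, NCAPD2, NCAPG, NCAPH, NCAPD3, NCAPG2 and NCAPH2), and all 8 were among the 16070 genes listed by the authors and among the 11745 that were tested. This choice was made with earlier results of these data known. In the 6p group, 3 libraries came from cells kept for 48 h with 25 µM of 6p, a derivative of the Streptomyces antibiotic platensimycin. In the control group, 3 libraries came from cells given the vehicle, 0.1% DMSO, although one label field calls them untreated. All cells grew in serum-containing medium, and the labels call the samples of each group independent without naming separate cultures or days, so the p-values measure only the spread between these samples.

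Both vertebrate condensins share the pair SMC2 and SMC4, long coiled-coil ATPases joined at a hinge. Condensin I adds the kleisin NCAPH, which bridges the ATPase heads, and the HEAT-repeat subunits NCAPD2 and NCAPG, whereas condensin II adds the corresponding kleisin NCAPH2 with NCAPD3 and NCAPG2. Condensin II is nuclear throughout the cell cycle and acts from prophase, and condensin I reaches the chromosomes after the nuclear envelope breaks down. The design sets 6p against vehicle at a single dose and time. A DMSO content was recorded for the control cells only. A bulk sample cannot tell fewer cells in the late cell cycle from less of a transcript in each cell.

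The levels below are FPKM, fragments scaled by gene length and library total, as deposited by the authors. Recovered library totals ran from 16775655 to 19957335 fragments, and the 8 genes held between 523 and 11693 fragments in a library. Control replicate 3 and 6p replicate 1 stood apart from the other libraries of their groups: in both, levels of longer genes were lower relative to the rest of the group (Spearman's rho of -0.677 and -0.517 across 11745 genes, which are not independent replicates). The condensin genes had a median length of 5108 nt, where that of all tested genes was 3904 nt. NCAPG (3864 nt), NCAPH (2789 nt) and NCAPH2 (2098 nt) were below the latter. The changes are therefore also given with the length trend removed and without both libraries. VIM and KRT18, markers of this mesenchymal-like epithelial line, were abundant, at 2685 FPKM or more and 545 FPKM or more in every library. The blood cell marker PTPRC and the fibroblast marker COL1A2 were at 0 in all libraries but 6p replicate 3, where they were listed at 0.019 and 0.012 FPKM.

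Every condensin subunit transcript was lower in 6p-treated cells, and the size of the fall differed among subunits from a 6p mean at 82.8% of control for NCAPH2 to 40.5% for NCAPD2. All 8 passed limma's test as lower, against 25.1% of all tested genes called lower. On log2(FPKM + 1), 6 of the 8 both passed as lower and fell 2-fold or more, as did 1.18% of tested genes. Their median log2 fold change was -1.12, where the median of all tested genes was -0.04. In each of the 8 the control and 6p libraries did not overlap, a pattern that 31.5% of tested genes showed in the same direction.

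**Figure D1:**
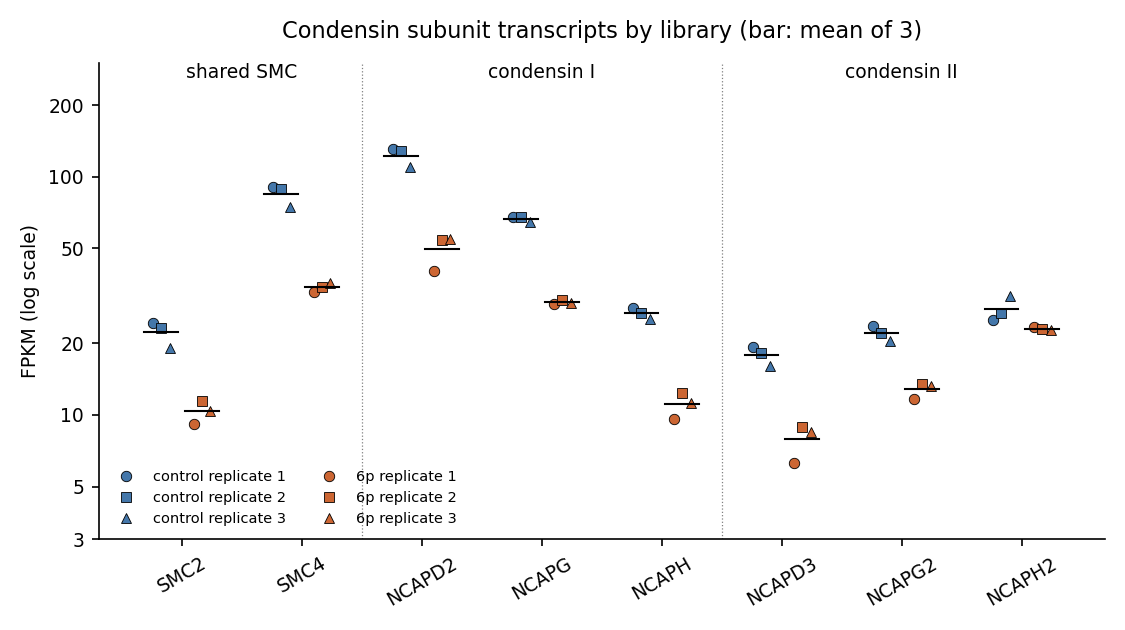
FPKM (log scale) of the 8 condensin subunit genes in 3 control libraries (blue) and 3 libraries of cells given 6p (orange), with circles, squares and triangles for replicates 1, 2 and 3 and a bar at each mean. For every gene the 6p points lie below the control points; the gap is narrowest for NCAPH2, with means of 27.8 and 23.0 FPKM.

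The shared ATPases fell together. SMC4 (chromosome 3, 160399274 to 160434962 in GENCODE release 29 on GRCh38) was at 90.7, 88.9 and 74.8 FPKM in control replicates 1 to 3 and at 32.9, 34.4 and 35.9 FPKM in 6p replicates 1 to 3. Its log2 fold change was -1.27 ± 0.09 (moderated SE, as for all changes that follow; adjusted p = 5.22e-05), which left 40.6% of the control mean. SMC2 (chromosome 9, 104094260 to 104141417) read 24.4, 23.2 and 19.2 FPKM in control and 9.18, 11.4 and 10.4 FPKM in 6p. Its change was -1.03 ± 0.11 (adjusted p = 0.000311), leaving 46.5%. In both genes control replicate 3 was the lowest control and 6p replicate 1 the lowest 6p library, yet every 6p library was far below every control. Although the 2 proteins pair one to one, SMC2 read well below SMC4 in FPKM, with a per-library ratio of 0.256 to 0.269 in control and 0.279 to 0.332 in 6p. The authors' FPKM divides SMC2 by 8839 nt and SMC4 by 5391 nt, as recovered from the values, so this ratio of levels depends on those lengths. The ratios of the groups did not overlap, with a log2 difference of 0.19 (0.12 without 6p replicate 2, 0.30 with the length trend removed). No test was run on ratios.

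The subunits particular to condensin I fell by similar amounts. NCAPD2, the HEAT-repeat subunit and the most abundant condensin transcript here (chromosome 12, 6493356 to 6531955), was at 131, 128 and 110.0 FPKM in control and at 40.4, 54.2 and 54.7 FPKM in 6p. That is a log2 fold change of -1.30 ± 0.13 (adjusted p = 0.000217), with 6p replicate 1 at 74.1% of the mean of the other 6p libraries. NCAPG, its HEAT-repeat partner (chromosome 4, 17810902 to 17844862), varied little within groups. It read 67.6, 67.8 and 64.5 FPKM in control and 29.3, 30.5 and 29.6 FPKM in 6p, a change of -1.14 ± 0.07 (adjusted p = 1.96e-05). NCAPH, the condensin I kleisin (chromosome 2, 96335787 to 96373845), was at 28.2, 26.7 and 25.4 FPKM in control and 9.65, 12.4 and 11.2 FPKM in 6p. It changed by -1.21 ± 0.10 (adjusted p = 8.16e-05). The 6p means of these genes were 40.5%, 44.7% and 41.3% of the control means for NCAPD2, NCAPG and NCAPH.

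The subunits of condensin II were spread more widely. NCAPD3 (chromosome 11, 134150119 to 134225454) was at 19.4, 18.2 and 16.0 FPKM in control and fell to 6.27, 8.93 and 8.47 FPKM in 6p, which gave -1.09 ± 0.13 on the log2 scale (adjusted p = 0.000448). NCAPG2 (chromosome 7, 158631311 to 158704829) was at 23.7, 22.1 and 20.4 FPKM in control and 11.7, 13.4 and 13.3 FPKM in 6p. Its change of -0.74 ± 0.09 (adjusted p = 0.000425) left 58.1% of the control mean. NCAPH2, the condensin II kleisin (chromosome 22, 50508216 to 50523472), was at 25.1, 26.9 and 31.4 FPKM in control and 23.5, 22.9 and 22.7 FPKM in 6p. The 6p libraries were tightly grouped and below the lowest control, by a small margin. The fitted log2 change was -0.26 ± 0.09 (adjusted p = 0.0463), leaving 82.8%.

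The call for NCAPH2 did not hold under most settings. It failed in 11 of 18 alternatives, among them leaving out control replicate 2 (adjusted p = 0.102), control replicate 3 (0.0814), 6p replicate 1 (0.0590), 6p replicate 2 (0.104) or 6p replicate 3 (0.121), over a range of 0.00105 to 0.184. Unlike the other members, NCAPH2 read highest of the controls in replicate 3, at 121% of the other controls, and it is the shortest of the 8 genes at 2098 nt. Removal of the length trend gave -0.37 ± 0.07 (adjusted p = 0.00105) for NCAPH2, with 27.2, 28.4 and 31.1 FPKM in control and 21.9, 22.3 and 21.9 FPKM in 6p. Without control replicate 3 and 6p replicate 1 together it was -0.18 ± 0.05 (adjusted p = 0.00814). That setting called 7742 of the 11745 tested genes, against 5457 with all 6 libraries. Its libraries were left out because these same data set them apart, which narrows the spread within groups and makes its p-values too low. It is among the 7 alternatives in which the NCAPH2 call held. The other 7 members passed as lower in all 18 alternatives.

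**Figure D2:**
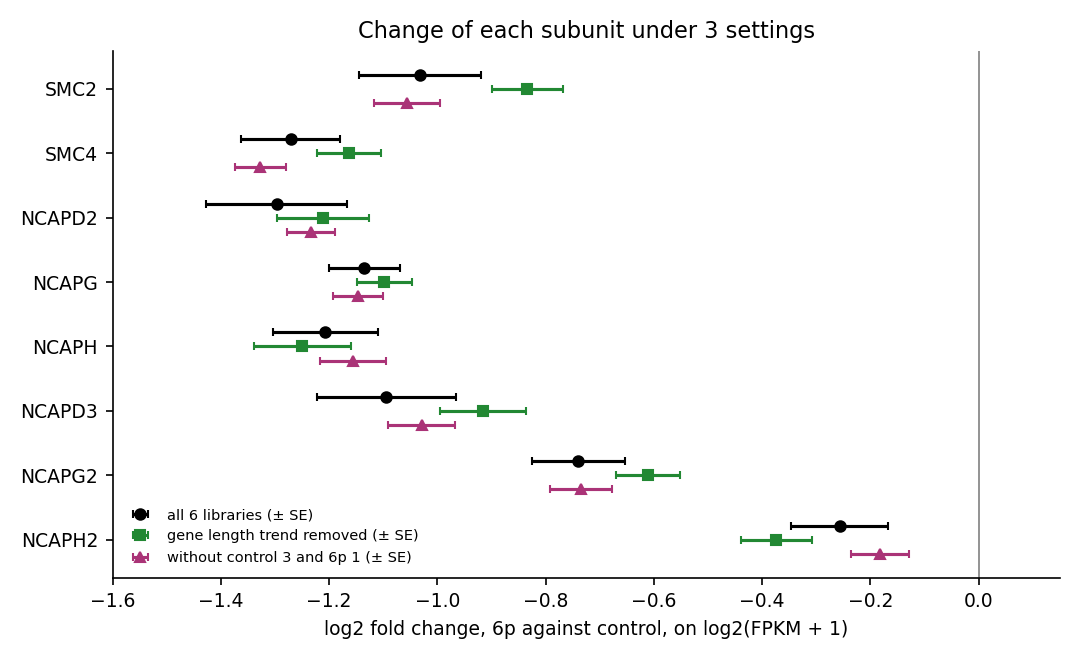
Log2 fold change of each subunit in 6p against control on log2(FPKM + 1), with moderated SE, for all 6 libraries (black circles), after removal of each library's trend on gene length (green squares) and without control replicate 3 and 6p replicate 1 (purple triangles). All points lie below 0, and NCAPH2 lies nearest to it under each setting, at -0.26, -0.37 and -0.18.

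Removing the length trend narrowed the falls of the longest members most. SMC2 (8839 nt) went from -1.03 to -0.83, NCAPD3 (7835 nt) from -1.09 to -0.92 and NCAPG2 (5975 nt) from -0.74 to -0.61. SMC4, NCAPD2 and NCAPG were at -1.16, -1.21 and -1.10 after removal, and NCAPH, at 2789 nt, was at -1.25. Control replicate 3 stood at 80.5% of the other controls for SMC2 and at 85.2% for NCAPD3, but at 95.3% for NCAPG and 92.5% for NCAPH. Without control replicate 3 and 6p replicate 1 the 7 larger falls ran from -0.73 for NCAPG2 to -1.33 for SMC4. The part of gene length in these differences between libraries was not tested further.

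Because NCAPG2 and NCAPH2 fell less than their condensin I counterparts, the ratio of the complexes' own subunits shifted. The mean FPKM of NCAPD2, NCAPG and NCAPH was 3.32, 3.31 and 2.95 times that of NCAPD3, NCAPG2 and NCAPH2 in control replicates 1 to 3. In 6p replicates 1 to 3 it was 1.91, 2.14 and 2.15 times, and the groups did not overlap. The kleisins moved furthest apart: NCAPH was at 1.12, 0.995 and 0.808 of NCAPH2 in control and at 0.411, 0.540 and 0.493 in 6p. The 95% interval of the log2 fold change was -1.43 to -0.99 for NCAPH and -0.46 to -0.05 for NCAPH2. NCAPG stood at 2.86, 3.07 and 3.17 times NCAPG2 in control and at 2.50, 2.27 and 2.23 times in 6p. NCAPD2 stood at 6.75, 7.02 and 6.87 times NCAPD3 in control and at 6.43, 6.07 and 6.46 times in 6p, a log2 difference of -0.12 that became -0.23 with the length trend removed. The difference between groups in the log2 ratio of condensin I to condensin II was -0.63, and -0.60 with the length trend removed. This ratio takes means of FPKM, so abundant subunits weigh most. NCAPH2 had the highest mean of the condensin II subunits in both groups. By pair, the log2 difference was -1.01 for NCAPH to NCAPH2, -0.38 for NCAPG to NCAPG2 and -0.12 for NCAPD2 to NCAPD3. The shift was thus uneven among pairs, and the ratio without NCAPH2 was not computed. These are ratios of RNA, and a score over several members carries no p.

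**Figure D3:**
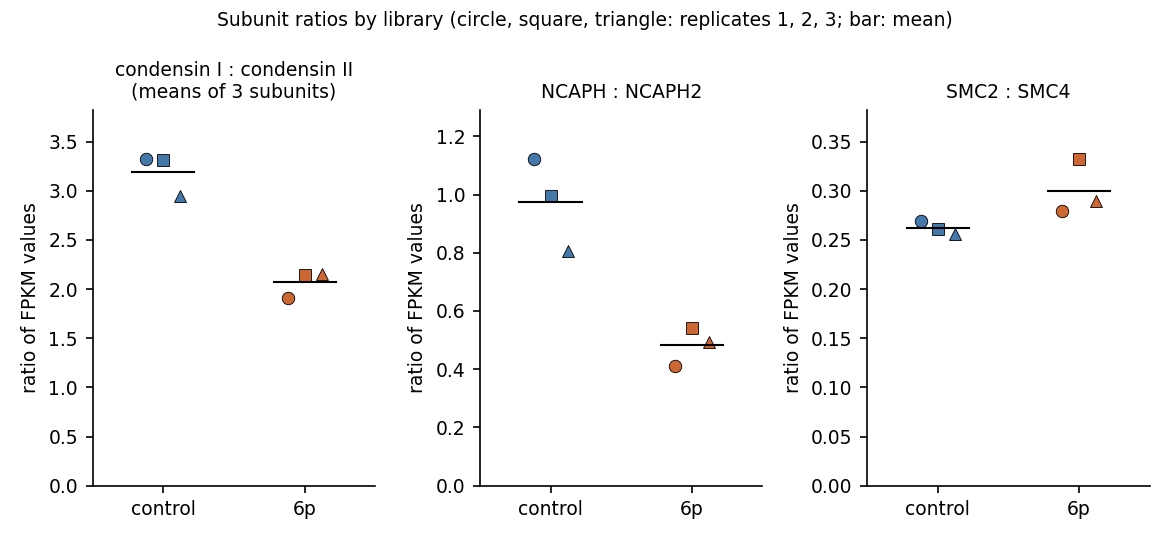
Ratios of FPKM values in each library for the mean of 3 condensin I subunits to the mean of 3 condensin II subunits, for NCAPH to NCAPH2 and for SMC2 to SMC4 (linear axes from 0; circles, squares and triangles are replicates 1, 2 and 3; bars are means of 3). The first ratio averaged 3.19 in control and 2.07 in 6p, the second 0.975 and 0.482, and in the third all 6p points lie above the control points, whose mean was 0.262.

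Across the 6 libraries, the 7 members other than NCAPH2 followed nearly the same profile. Pearson's r between pairs of them ran from 0.970 to 0.998 on log2(FPKM + 1), and r with NCAPH2 ran from 0.66 to 0.78. These correlations rest on 6 points that fall into the treatment groups and share library effects, so they are descriptions only. The candidates were 6821 genes averaging 5 FPKM or more, after members, listed genes and symbols that look like clones, pseudogenes, antisense RNAs or open reading frames were left out; the pseudogene pattern, P followed by digits at the end, also drops some protein-coding genes. Among them, those with the highest median r to the 8 members were JADE2, BRD8, BUB1B, CKAP2L, BCLAF1 and UBR7, with medians of 0.995 to 0.997. BUB1B encodes the spindle checkpoint kinase BubR1 and CKAP2L a mitotic spindle protein. BUB1B was at 37.9, 37.5 and 31.8 FPKM in control and 15.3, 19.2 and 17.9 FPKM in 6p, and so had the same low control replicate 3 and low 6p replicate 1 as SMC2. JADE2, a PHD finger protein, changed most of the 6, by -1.45 ± 0.13 (adjusted p = 0.000147).

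Many genes of the late cell cycle carry a cell cycle genes homology region (CHR), a short promoter element bound by MuvB complexes, often near CCAAT boxes that bind NF-Y. Promoters of 7 of the 8 members were matched in the RefSeq table on GRCh38, which gives 250 bases before to 50 after each transcript start; NCAPH2 was not matched. They are shown because these genes fell together, from 150 bases before to 30 after the start, with each CHR match (TTTGAA, or TTCAAA where it lies on the other strand) in capitals; for NCAPG2 only bases 21 to 50 after the start are shown, where its match lies. The stretches are chr9:104094159-104094338 (plus strand) for SMC2, chr3:160399500-160399679 (plus strand) for SMC4, chr12:6493952-6494131 (plus strand) for NCAPD2, chr11:134223938-134224117 (minus strand) for NCAPD3, chr4:17810829-17811008 (plus strand) for NCAPG, chr7:158704755-158704784 (minus strand) for NCAPG2 and chr2:96335616-96335795 (plus strand) for NCAPH. SMC2, SMC4 and NCAPD3 each have a second listed start; for NCAPD3 the second is shown, since the first had no CHR match.
SMC2: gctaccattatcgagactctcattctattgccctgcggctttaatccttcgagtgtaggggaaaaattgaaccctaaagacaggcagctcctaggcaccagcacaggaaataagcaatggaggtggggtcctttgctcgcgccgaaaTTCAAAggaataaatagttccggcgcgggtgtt
SMC4: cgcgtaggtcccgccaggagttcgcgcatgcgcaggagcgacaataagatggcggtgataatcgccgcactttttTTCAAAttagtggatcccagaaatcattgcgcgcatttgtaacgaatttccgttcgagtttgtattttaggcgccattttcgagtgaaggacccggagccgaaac
NCAPD2: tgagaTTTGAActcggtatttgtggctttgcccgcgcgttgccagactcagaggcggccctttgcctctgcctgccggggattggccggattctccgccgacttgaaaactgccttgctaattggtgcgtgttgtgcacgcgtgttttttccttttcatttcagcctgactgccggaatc
NCAPD3: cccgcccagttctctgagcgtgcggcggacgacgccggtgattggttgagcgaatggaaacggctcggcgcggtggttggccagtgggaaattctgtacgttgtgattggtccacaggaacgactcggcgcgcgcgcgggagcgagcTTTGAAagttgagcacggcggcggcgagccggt
NCAPG: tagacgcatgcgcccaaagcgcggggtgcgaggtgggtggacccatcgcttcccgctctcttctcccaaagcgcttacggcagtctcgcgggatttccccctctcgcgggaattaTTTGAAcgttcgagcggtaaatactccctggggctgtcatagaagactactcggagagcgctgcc
NCAPG2: gcgccggcgggtgcgTTTGAAtctggtccg
NCAPH: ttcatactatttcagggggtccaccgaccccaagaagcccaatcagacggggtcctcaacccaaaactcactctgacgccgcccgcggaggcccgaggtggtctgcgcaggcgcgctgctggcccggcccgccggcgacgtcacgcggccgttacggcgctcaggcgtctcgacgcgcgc

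Of these 7 members, 6 held the CHR motif TTTGAA on either strand at any listed start, and NCAPH did not. Over single starts the motif was at 6 of 10, and over first listed starts only, in 5 of 7 members. The motif was in 15.2% of 35116 promoters of the same length, and, at any listed start, in 13.2% of the 9593 tested genes with a promoter. In SMC2 and NCAPD3 it spanned the annotated start, from base -3 to base 3. In NCAPG it lay from -35 to -30, next to a match to an E2F-type motif (TTCCCGC or TTGGCGC, either strand) from -45 to -39, without overlap. In SMC4, NCAPD2 and NCAPG2 it began at -75, -145 and 36. CCAAT, on either strand, was found in NCAPD2 at 4 places, in NCAPD3 at 2 and in NCAPH at 1, so in 3 of 7 members against 43.8% of tested genes. E2F-type motifs were in NCAPG and NCAPD3, 2 of 7 members against 18.5% of tested genes. No match of one motif overlapped a match of another in these promoters. Of the tested genes with the CHR motif 34.4% were called lower, and of those without it 24.1%. A match is a description of letters, not of a bound site.

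**Figure D4:**
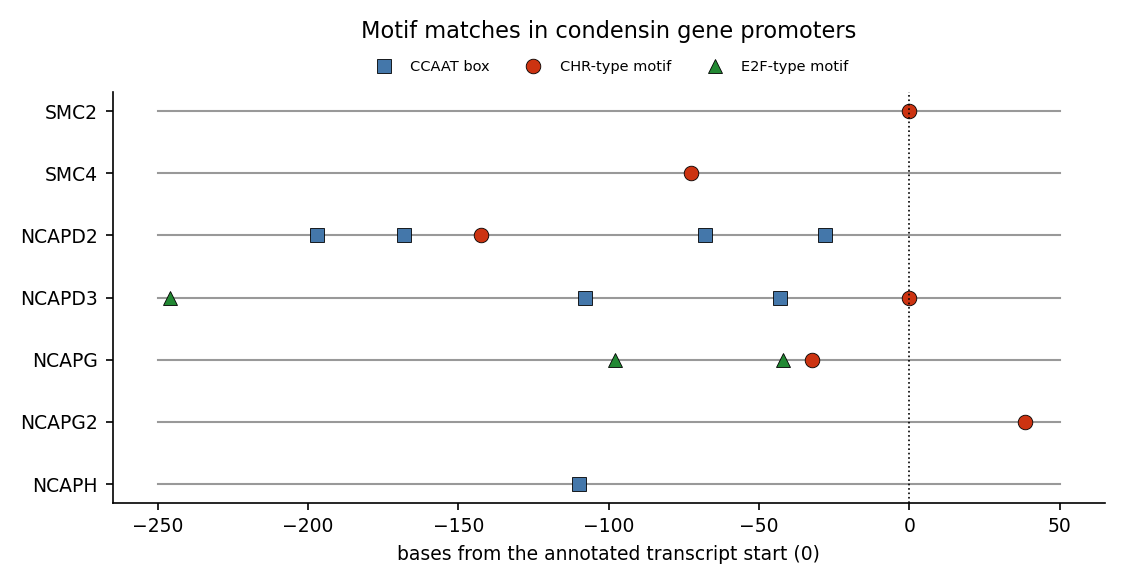
Positions of motif matches, in bases from the annotated transcript start, in the promoters of 7 condensin genes (window of 250 bases before to 50 after the start, marked 0): CHR-type (red circles), CCAAT (blue squares) and E2F-type (green triangles). A CHR match is present in 6 of the 7 rows, at the start itself in SMC2 and NCAPD3, and absent in NCAPH. Each row shows a single listed start, and for NCAPD3 the second, since its first had no CHR match. Over all listed starts the match was at 6 of 10.

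Condensin is activated in mitosis by phosphorylation, and a list of its regulators was examined. Of its 19 genes 18 were tested, of which 11 were lower and 3 higher (median -0.59), beside 25.1% lower and 21.3% higher among all tested genes. PLK1, the mitotic kinase that phosphorylates condensin II, was at 101 ± 0.944 FPKM in control and 43.9 ± 4.67 in 6p (mean ± SD, n = 3, as for the pairs that follow), a change of -1.19 ± 0.09 (adjusted p = 6.07e-05). CDK1, the main mitotic kinase, fell less, by 0.60 on the log2 scale, from 50.9 ± 2.93 to 33.2 ± 2.90 FPKM (adjusted p = 0.00104). AURKB, the Aurora B kinase that promotes loading of condensin I, changed by -0.71 ± 0.10. Among its partners in the chromosomal passenger complex, BIRC5 and CDCA8 changed by -1.10 ± 0.08 and -1.21 ± 0.08. The checkpoint kinase BUB1 changed by -1.14 ± 0.08. The 3 higher genes, named after their values were seen, were the casein kinase 2 subunits CSNK2A1, CSNK2A2 and CSNK2B, at 0.25 ± 0.08, 0.40 ± 0.08 and 0.42 ± 0.10. Casein kinase 2 is known to phosphorylate condensin in interphase and to restrain it. Calls for CSNK2A1 and CSNK2A2 were lost after rescaling to TPM (adjusted p = 0.603 and 0.128), and that for CSNK2B with the length trend removed (0.0824). CSNK2A1 was also lost without any one library except 6p replicate 1 (adjusted p 0.0504 to 0.0988). MCPH1, the microcephalin that holds back condensin II, was low, at 0.606 ± 0.0805 FPKM in control and 0.499 ± 0.0348 in 6p, and did not pass the test (-0.10 ± 0.07 on the log2 scale, adjusted p = 0.277). Its sign turned, to 0.19, once the length trend was removed.

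The related SMC complexes are described by counts, medians and named genes. Of 17 genes of cohesin, which holds sister chromatids together, and its regulators, 13 were lower and 0 higher (median -0.59), in limma. ESPL1, which encodes separase, fell from 18.5 ± 2.31 to 6.79 ± 1.75 FPKM (-1.35 ± 0.17, adjusted p = 0.000634), and the acetyltransferase gene ESCO2 and the sororin gene CDCA5 changed by -0.93 ± 0.11 and -0.66 ± 0.07. RAD21, the cohesin kleisin, fell from 123 ± 6.89 to 76.7 ± 1.02 FPKM (-0.68 ± 0.07, adjusted p = 0.000327), which is 62.3% of the control mean against 41.3% for the condensin I kleisin NCAPH. Of 9 genes of the SMC5/6 complex, a DNA repair relative, 3 were lower and 3 higher (median -0.13), where 25.1% of all tested genes were lower and 21.3% higher. The higher ones were NSMCE1, at 0.91 ± 0.14, NSMCE3, at 0.34 ± 0.07, and NSMCE2, at 0.36 ± 0.13. The lower ones were EID3, at -0.85 ± 0.10, SLF2, at -0.48 ± 0.11, and SLF1, at -0.21 ± 0.07 but at 0.04 with the length trend removed. NSMCE2 and SLF1 were named after their values were seen and are the least stable: 7 of 18 alternatives ended the call for NSMCE2 and 11 of 17 that for SLF1, among them, for each gene, the omission of replicate 1 or 2 from control and of replicate 1 or 3 from 6p. Whether condensin differed from these complexes as a group was not tested.

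Other proteins of the mitotic chromosome fell alongside condensin. In a list of 11 such genes, 10 were lower and 0 higher (median -0.67), in limma. Among all tested genes, 25.1% were lower and 21.3% higher. TOP2A, the topoisomerase that untangles chromatids with condensin, fell from 64.6 ± 7.71 to 28.7 ± 2.45 FPKM (-1.14 ± 0.11, adjusted p = 0.000160). KIF4A, the chromosome axis kinesin that binds condensin I, changed less, from 43.1 ± 0.959 to 25.8 ± 1.19 FPKM (-0.72 ± 0.07, adjusted p = 0.000173). NUSAP1, a spindle protein of the chromosome surface, changed by -1.20 ± 0.08 and CDCA2, a phosphatase subunit of anaphase chromatin, by -1.02 ± 0.10. These genes were named by adjusted p and not by size of change. MKI67, named after its values were seen, changed most in the list, by -2.23 ± 0.23 (adjusted p = 0.000263). It is a long gene (13228 nt), and its controls ranged from 28.6 to 51.5 FPKM.

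Transcripts of factors known to control late cell cycle promoters moved in the same direction for most genes: 13 of 17 were lower and 1 higher (median -0.52). Of all tested genes, 25.1% were lower and 21.3% higher. FOXM1 and MYBL2, the activators that join MuvB at CHR promoters, changed by -1.20 ± 0.10 and -1.19 ± 0.09. MYBL2 went from 136 ± 5.44 to 59.5 ± 5.44 FPKM. TFDP1, the partner of E2F proteins, changed by -0.91 ± 0.07 and the repressor E2F8 by -1.56 ± 0.15. The 1 higher gene, named after its values were seen, was the MuvB subunit LIN37, which rose from 24.3 ± 2.07 to 46.7 ± 4.72 FPKM (0.91 ± 0.10, adjusted p = 0.000267).

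**Figure D5:**
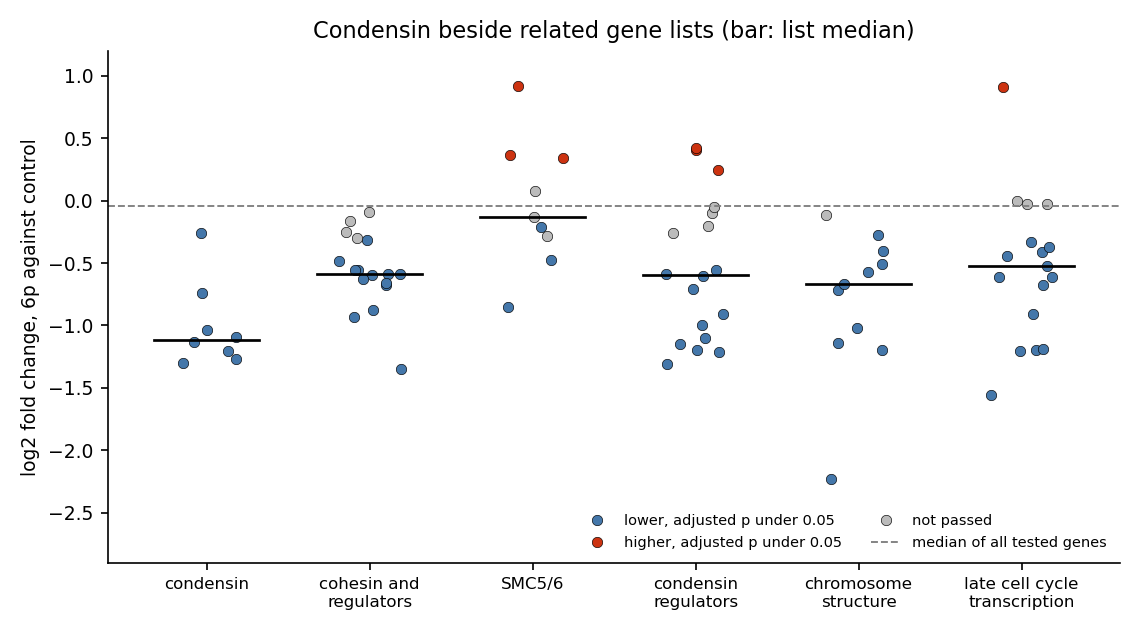
Log2 fold change in 6p against control of each tested gene in the condensin list and 5 related lists (blue, lower; red, higher; grey, not passed at adjusted p under 0.05), with a bar at each list's median and a dashed line at the median of all tested genes. Condensin has the lowest median, at -1.12, and the SMC5/6 list lies nearest the dashed line, at -0.13.

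Some members share their locus with other genes. In GENCODE release 29, and counting only genes in the deposited table, NCAPD2 overlaps the opposite-strand gene MRPL51 by 486 bases, SMC4 overlaps TRIM59 by 2518 bases and IFT80 by 607 bases, NCAPD3 overlaps JAM3 and VPS26B, and NCAPG overlaps LCORL. The libraries were stranded, but no source used here states whether the counting used strand. MRPL51, a mitochondrial ribosomal protein gene, averaged 183 FPKM in control and 212 in 6p, opposite to NCAPD2, and JAM3 averaged 18.6 and 18.9 FPKM. TRIM59 averaged 21.1 and 12.4 FPKM. NCAPH2, SMC2, NCAPG2 and NCAPH had no such overlap.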

How the data were processed

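Per the labels' protocols, RNA was isolated with TRIzol and turned into stranded mRNA libraries (TruSeq). The values deposited by the authors are FPKM for 16070 genes. Cufflinks, HTSeq, HISAT2, Trimmomatic and the build GRCh38 are named in the submitters' processing notes, with no roles or versions in the sources used here. Each library's values are whole multiples of a step set by gene length and library total. Solving for these steps (Python 3.11.15, tolerance 0.001 fragments) gave totals of 16775655 to 19957335 fragments and whole fragments for 100% of 11745 tested genes. Replicate pairs differed by more than sampling noise, with a chi-square per degree of freedom of 1.97 to 29.4. It was 1.97 for 6p replicates 2 and 3 and 3.7 for control replicates 1 and 2. Pairs with control replicate 3 or 6p replicate 1 were at 16.3 to 29.4. All 6 libraries were kept as separate samples, though these values cannot show whether they came from separate cultures.

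On log2(FPKM + 1), limma 3.58.1 in R 4.3.3 (trended, robust eBayes) tested each gene averaging 0.5 FPKM or more, two-sided. P-values were adjusted by Benjamini-Hochberg over all 11745 genes, with a threshold of 0.05. This scale understates the change of low genes. The script was tested on simulated data. Those data had no gene length trend and no library effect, so they check the code and not the error rate in these libraries. The 18 alternatives cover the pseudocount, filter, scaling, variance model, replicate block, removal of a loess trend on gene length (span 0.5), limma voom on recovered fragments, and leaving out libraries. Lists are described by counts and medians, with no set test. Beside the 8 members, the genes named were up to 4 per list with the smallest adjusted p, 7 fixed genes, some of which the list rule also named, and the 6 nearest profiles. CSNK2A1, CSNK2A2, CSNK2B, NSMCE2, SLF1, LIN37 and MKI67 were named after their values were seen. The members and lists were chosen with earlier results of these data known. M18BP1, in the regulator list, was not among the listed symbols. Gene positions are from GENCODE release 29 and promoters from RefSeq, both on GRCh38. The number of per-sample columns not used was 0. A marker in the cell line check is not reported here.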

Additional observations from a re-analysis of the deposited data

How the results depend on the processing

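SMC2, SMC4, NCAPD2, NCAPD3, NCAPG, NCAPG2 and NCAPH passed as lower in each of the 18 alternatives. NCAPH2 kept its direction but not its call: its log2 fold change and adjusted p were -0.26 and 0.0689 with no filter, -0.20 and 0.184 after median recentring, -0.22 and 0.0643 after quantile normalization, -0.26 and 0.0508 with eBayes without trend and robust, and -0.22 and 0.126 with voom on recovered fragments. Leaving out 1 library at a time gave -0.32 to -0.17. The cause was not tested. Rescaling to TPM shifted the median of all genes to -0.21 from -0.04 and the share of calls that were lower to 72.3% from 54.1%; higher genes then numbered 1526, and NCAPH2 was at -0.44 and NCAPD2 at -1.49 on that shifted scale. Genes called numbered 5457, and 3517 (without control replicate 2) to 6084 when 1 library was left out. They numbered 7742 without control replicate 3 and 6p replicate 1 together. Signs turned with the length trend removed for MCPH1 (0.19) and SLF1 (0.042). List counts moved by over 1.5 times with a mean of at least 5 FPKM, where fewer genes are tested (SMC5/6 lower 0, late cell cycle transcription lower 8), after rescaling to TPM (SMC5/6 higher 1, regulators higher 1) and under the block (regulators higher 1).

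Deviations from the group means did not follow the replicate numbers: they correlated at -0.569, 0.326 and -0.417 between libraries numbered 1, 2 and 3. Control replicate 1 correlated best with 6p replicate 2 (0.55). The highest value, 0.634, was between control replicate 3 and 6p replicate 1, the libraries with lower levels of longer genes. Because that length trend enters these deviations, they cannot show whether the samples were paired. With the replicate number as a block, 3694 genes were called, 1920 of them lower, as were 7 of 8 members; NCAPH2 was at -0.26 (adjusted p = 0.106).

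Each member held at least 523 fragments in every library, and 3 libraries a group limit the precision of every fold change.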
